A study of Homo sapiens with 65 samples.

Results

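Human H9 embryonic stem cells were differentiated towards definitive endoderm, and the cells of day 7 of that protocol were compared with those of day 4. The 6 libraries, 3 of day 7 and 3 of day 4, were picked by their titles out of 65 libraries in the series. The other libraries used here are those of day 2 and day 0 of the same protocol, which share the fit with 3 libraries each. H9 is an established line from a human blastocyst, and all 12 libraries came from a reporter derivative with mCherry at 1 allele of SOX17 and GFP at 1 allele of RUNX1C. The RUNX1 gene itself was not deleted in these cells. According to the labels the medium held Activin A, CHIR and PI-103 on day 0, and Activin A with DMH-1 from day 1 to day 7, so the day 7 and the day 4 cells were under the same agents and differ in the time spent in them. Activin A is a ligand of the Nodal receptors, CHIR an inhibitor of the kinase GSK3, PI-103 an inhibitor of phosphoinositide 3-kinase and DMH-1 an inhibitor of BMP type I receptors. The cells were not sorted, and the submitters describe the day 7 culture as nearly pure endoderm positive for SOX17, EPCAM, CXCR4 and KIT.

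Definitive endoderm is the germ layer that gives rise to the lining of gut and airways, liver, pancreas and thyroid. It forms from the anterior primitive streak under strong Nodal signalling, through factors such as EOMES, MIXL1, GATA6, SOX17 and FOXA2, and it then loses streak genes and acquires regional identities along the gut. ACTA2 and ACTC1 encode actins of smooth muscle and of heart, and KLHL14 encodes a Kelch-like protein known from thyroid and B cells; the 3 genes were given as marks of the comparison and serve below as its opening examples.

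RNA was measured by TruSeq sequencing, as fragments counted per gene. The day 7 libraries held 18720678, 19081031 and 15967344 counts, against 15803703, 15042865 and 16502541 counts in the day 4 libraries. Mitochondrial genes took 5.27 to 5.87 % of the counts at day 7 and 5.49 to 5.78 % at day 4. Levels are given as CPM, the counts of a gene scaled to library size with TMM factors, and differences as log2 fold change of day 7 over day 4 with its standard error. Each adjusted p comes from edgeR's quasi-likelihood test with Benjamini-Hochberg adjustment over all genes tested. The labels do not say whether the replicates were separate cultures, so the p-values measure only the spread between these libraries. In such bulk libraries a change in the share of cells of a type and a change in RNA per cell cannot be told apart. The third day 4 library carries a library number far from those of the other 5, and what that number stands for is not stated; values without it are given where a call changes or a value moves by over 1.5 times.

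Of 21542 genes tested, 4579 changed at an adjusted p under 0.05, or 21.3 %. There were 2413 genes higher at day 7, or 11.2 % of those tested, and 2166 genes lower, or 10.1 %. Counts of list members below are to be read beside these shares. Changes of over 2-fold were called for 1004 genes upward and 983 downward, and changes of over 8-fold for 134 genes upward and 68 downward. The median log2 fold change of all genes tested was -0.03. Without the third day 4 library, 4512 genes were called.

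**Figure D1:**
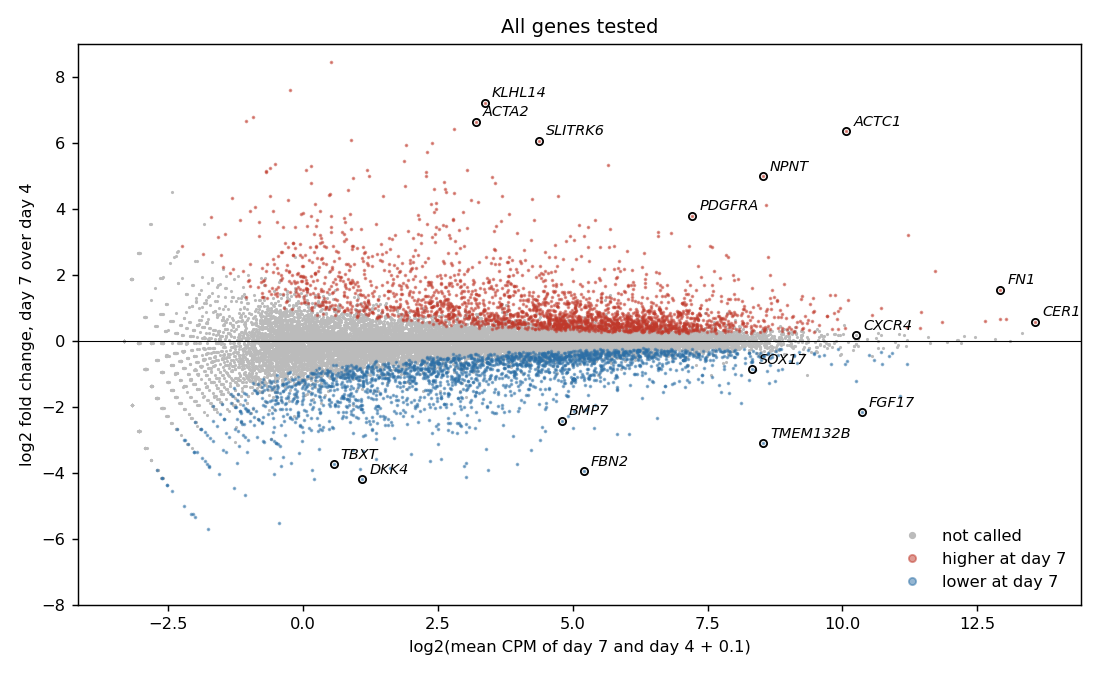
Each point is 1 of the 21542 genes tested; the horizontal axis is the log2 of the mean CPM of day 7 and day 4 plus 0.1, and the vertical axis the log2 fold change of day 7 over day 4. Red points were called higher at day 7, blue points lower and grey points were not called; circled genes are named. ACTC1 and NPNT combine a high level with a large change (6.35 and 4.99), and the fitted values of genes with a handful of counts, at the left, depend on the prior count.

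Contractile genes were the list with the largest share of members higher at day 7. Of 25 contractile genes tested, 15 were higher at day 7 and 0 were lower, with a median log2 fold change of 0.60, beside 11.2 % higher and a median of -0.03 over all genes. The count lay between 13 and 17 when any 1 library was left out. Together the contractile genes took 0.704, 0.549 and 0.983 % of all counts in the day 7 libraries, against 0.323, 0.320 and 0.260 % in the day 4 libraries. The third day 7 library held the most contractile RNA and the second day 7 library the least, and the groups did not overlap.

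Within this group the muscle actins changed most. ACTC1, the alpha actin of fetal and adult heart (chr15:34788095-34795726, GRCh38, minus strand), stood at 1814, 1351 and 3202 CPM at day 7, against 39.5, 27.4 and 11.2 CPM at day 4. That is a log2 fold change of 6.35 ± 0.44 (adjusted p = 4.71e-07), or 81.6-fold. ACTA1, the alpha actin of skeletal muscle, measured 636, 574 and 969 CPM at day 7, against 66.8, 34.4 and 23.2 CPM at day 4, a log2 fold change of 4.13 ± 0.35 (adjusted p = 2.37e-06). Per length, ACTA1 and ACTC1 reached similar levels at day 7, with 504 and 474 RPKM, whereas at day 4 ACTA1 stood at 28.8 and ACTC1 at 5.82 RPKM. ACTA2, the alpha actin of smooth muscle (chr10:88935074-88991339, minus strand), had 10.96, 7.25 and 35.8 CPM at day 7, against 0.129, 0.338 and 0.0616 CPM at day 4. Its log2 fold change was 6.64 ± 0.78 (adjusted p = 3.89e-05), which became 5.66 without the third day 7 library and 7.46 without the second day 4 library. ACTG2, the gamma actin of enteric smooth muscle, followed with 8.58, 5.80 and 26.3 CPM at day 7 against 0.0643, 0.203 and 0.185 CPM at day 4, a log2 fold change of 6.41 ± 0.70 that became 5.51 without the third day 7 library.

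These actins are close paralogs, and their transcripts share exact runs of at most 29 to 48 bases a pair and 0 windows of 50 bases. ACTA2 held 0.537 to 1.12 % as many counts as ACTC1 in the day 7 libraries and ACTG2 held 0.429 to 0.820 %, against 0.326 to 1.23 % and 0.163 to 1.65 % in the day 4 libraries. Whether reads of ACTC1 were counted for these genes was not tested, so the changes of ACTA2 and ACTG2 are uncertain. ACTA2 also overlaps ACTA2-AS1, STAMBPL1 and FAS on the opposite strand, ACTA2-AS1 by 5747 bases. ACTA2-AS1, an antisense RNA, had 6.20, 4.24 and 20.0 CPM at day 7, against 0.129, 0.271 and 0.0616 CPM at day 4 (log2 fold change 5.99 ± 0.77; 5.04 without the third day 7 library, 6.62 without the second day 4 library). The sources used here do not say whether counting used strand, and the reads of this pair cannot be told apart.

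**Figure D2:**
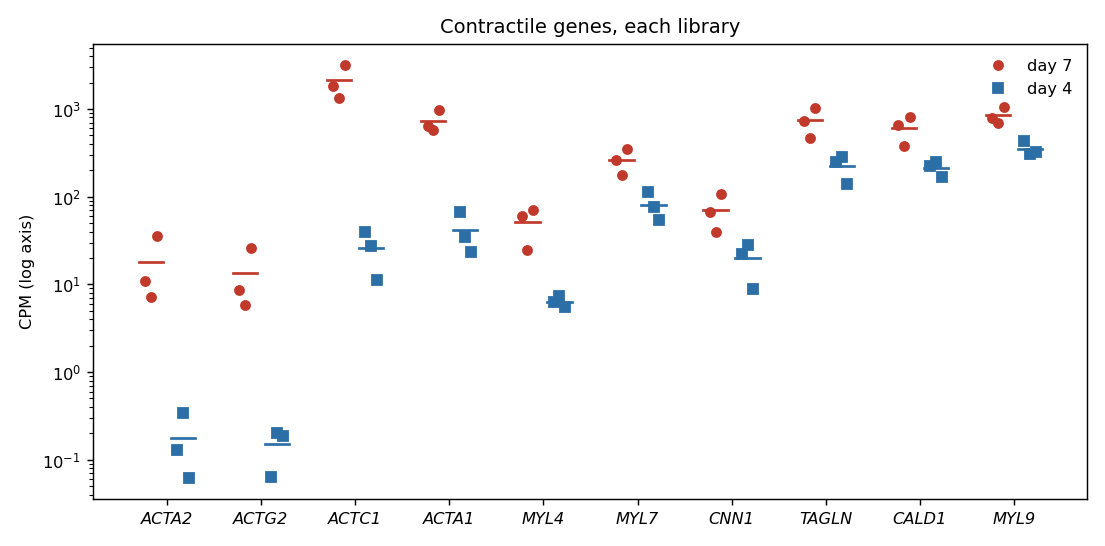
Levels of 10 contractile genes in CPM on a log axis, day 7 (red circles) left of day 4 (blue squares); points are libraries and lines are group means. The 3 day 7 libraries lie above the 3 day 4 libraries for each of the 10 genes, and the third day 7 library is the highest for all of them.

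Several myosin light chains and actin-binding proteins rose as well. MYL4, the light chain of embryonic and atrial muscle, measured 60.05, 24.5 and 71 CPM at day 7 against 6.23, 7.30 and 5.55 CPM at day 4, a log2 fold change of 3.03 ± 0.32 (adjusted p = 1.46e-05). MYL7, the atrial regulatory light chain, rose 3.25-fold to 264 ± 86.4 CPM at day 7, against 81.3 ± 29.7 CPM at day 4 (SD, n = 3 each). MYL9, the regulatory light chain of smooth muscle and non-muscle cells, rose by 1.26 ± 0.15 on the log2 scale. The early smooth muscle markers TAGLN, CNN1 and CALD1, which bind actin filaments, rose by 1.73 ± 0.29, 1.85 ± 0.37 and 1.53 ± 0.24. TAGLN had 734, 472 and 1035 CPM at day 7, against 249, 287 and 141 CPM at day 4. The tropomyosins TPM2 and TPM4, which lie along the actin filament, rose by 0.69 ± 0.15 and 0.59 ± 0.12, while TPM1 measured 0.33 ± 0.16 and was not called (adjusted p = 0.157; 0.0383 without the second day 7 library).

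Several other muscle genes were not called or were barely detected. TTN, the giant spring protein of the sarcomere, had 462, 448 and 650 CPM at day 7, against 514, 551 and 554 CPM at day 4, and was not called (log2 fold change -0.06 ± 0.14). Cardiac troponin TNNT2 stayed at or under 0.406 CPM in all 6 libraries. The cardiac myosin MYH6 had at most 0.058 CPM, and DES, the muscle intermediate filament, at most 0.870 CPM. The smooth muscle myosin MYH11 lay between 4.39 and 4.52 CPM at day 7 and between 2.25 and 3.82 CPM at day 4, with 0.48 ± 0.20 on the log2 scale and an adjusted p of 0.0999 (0.64 and 0.0493 without the third day 4 library). The heart and mesoderm factors NKX2-5, TBX5, HAND1 and HAND2 were at 0 or at most 0.0686 CPM. MYOCD, the coactivator of smooth and cardiac muscle genes, had 42.4, 21 and 63.5 CPM at day 7, against 108, 93.7 and 27.6 CPM at day 4. Its groups overlapped, and it was not called (log2 fold change -0.85 ± 0.41, adjusted p = 0.166). The overlap came from the third day 4 library, without which MYOCD was called lower (-1.25, adjusted p = 0.0106).

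Among the regulators of muscle transcription 2 of 9 genes tested rose, MRTFA and MEF2C, beside 11.2 % of all genes tested. MRTFA, an actin-sensing coactivator of the serum response factor, rose by 0.55 ± 0.10, with 64.05, 71.6 and 67.4 CPM at day 7 against 48.01, 41.2 and 49.2 CPM at day 4. MEF2C, a muscle transcription factor, was low at both times, with 1.80, 0.812 and 3.50 CPM at day 7, against 0.257, 0.0676 and 0.123 CPM at day 4; its log2 fold change of 3.67 ± 0.68 became 3.05 without the third day 7 library and 4.28 without the first day 4 library. SRF itself had 129, 120 and 153 CPM at day 7, against 138, 152 and 118 CPM at day 4, with overlapping groups and an adjusted p of 0.931. Of 16 immediate targets of SRF and of the Hippo effector YAP, 6 rose and 0 fell, though 2 fell without the third day 4 library. Over all genes tested 11.2 % rose and 10.1 % fell. CCN2, a matricellular YAP target, rose to 129, 117 and 127 CPM at day 7, against 44.7, 44.1 and 22.7 CPM at day 4 (log2 fold change 1.74 ± 0.37). The transcription factor JUN rose by 1.05 ± 0.20 and the actin crosslinker FLNA by 0.59 ± 0.11. FOS, EGR1 and THBS1 were not called (-0.42 ± 0.58, 0.08 ± 0.61 and -0.22 ± 0.56), and THBS1 lay between -0.88 and 0.36 with 1 library left out.

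SRF binds a short element called the CArG box. The promoters of contractile genes were searched for it in the 250 bases before 1 RefSeq start per gene, the first listed (build GRCh38.p14). Further starts of a gene were not searched. Only the strict form was counted, CC, then 6 bases of A or T, then GG, which reads the same on both strands. Promoter entries were matched for 12 of the 15 contractile genes that rose, and 6 of the 12 held at least 1 CArG box. The element was found in 1 of 6 matched contractile genes tested and not called, in 1.04 % of the 13026 matched promoters of all genes tested and in 2.55 % of the 1650 matched promoters of all genes that rose. These are matches of letters and not measured binding sites. The contractile genes were chosen as a class, with earlier results of these data known. Their share beside that of all genes therefore describes the class and does not measure the change at day 7. A part of SRF in these rises was not tested. ACTA2, CNN1, CALD1 and TPM2, whose rises are described above, were matched and held none in the 250 bases before the start searched. For ACTA2 the 150 bases before that start are chr10:88991338-88991487, at the outer edge of the annotated gene. Starts inside the gene were not searched, so the absence covers that start only. The 150 bases before the start are shown for 4 of the 6 rising genes that held a CArG box. They run 5′ to 3′ on the strand of the gene, with the CArG box in capitals. It begins 109 bases before the start of ACTC1, 97 bases before that of ACTA1, 61 bases before that of MYL7, and 110 and 73 bases before that of ACTG2.
ACTC1 promoter, chr15:34795550-34795699, minus strand: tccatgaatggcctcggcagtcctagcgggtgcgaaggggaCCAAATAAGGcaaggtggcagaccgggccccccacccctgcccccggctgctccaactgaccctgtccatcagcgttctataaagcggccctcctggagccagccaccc
ACTA1 promoter, chr1:229434095-229434244, minus strand: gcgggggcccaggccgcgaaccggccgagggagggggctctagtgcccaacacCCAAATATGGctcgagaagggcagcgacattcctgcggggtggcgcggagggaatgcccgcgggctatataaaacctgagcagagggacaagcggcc
ACTG2 promoter, chr2:73892858-73893007, plus strand: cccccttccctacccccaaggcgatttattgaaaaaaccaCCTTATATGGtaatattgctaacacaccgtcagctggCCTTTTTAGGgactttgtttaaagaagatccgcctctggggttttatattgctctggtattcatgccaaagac
MYL7 promoter, chr7:44141333-44141482, minus strand: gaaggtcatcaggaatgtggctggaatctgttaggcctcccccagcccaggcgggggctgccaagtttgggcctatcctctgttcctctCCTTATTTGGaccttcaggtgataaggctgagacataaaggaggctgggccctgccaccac

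Over the 4 days, 13 of the 15 contractile genes that rose had their highest mean at day 7, and 11 had their lowest at day 2. Over days 0, 2, 4 and 7 ACTC1 averaged 118, 3.95, 26.02 and 2122 CPM, ACTA1 140, 0.843, 41.4 and 727 CPM, and TAGLN 272, 6.58, 225 and 747 CPM. ACTG2 had been at 23.7 CPM at day 0, above its day 7 mean of 13.6 CPM. After scaling all 65 libraries together, the mean of ACTC1 in day 7 endoderm was 2200 CPM, the highest of 19 groups, and the next was 286 CPM in KO cells of day 4 of the mesoderm protocol; these ranks are descriptions, with no test. ACTA1, MYL4, MYL7, TAGLN and MYL9 also had their highest group mean in day 7 endoderm. ACTA2 did not: its mean of 18.7 CPM there ranked 5 of 19, after 4 groups of sorted cells of day 7 of the mesoderm protocol, of which the highest had 28.6 CPM.

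**Figure D3:**
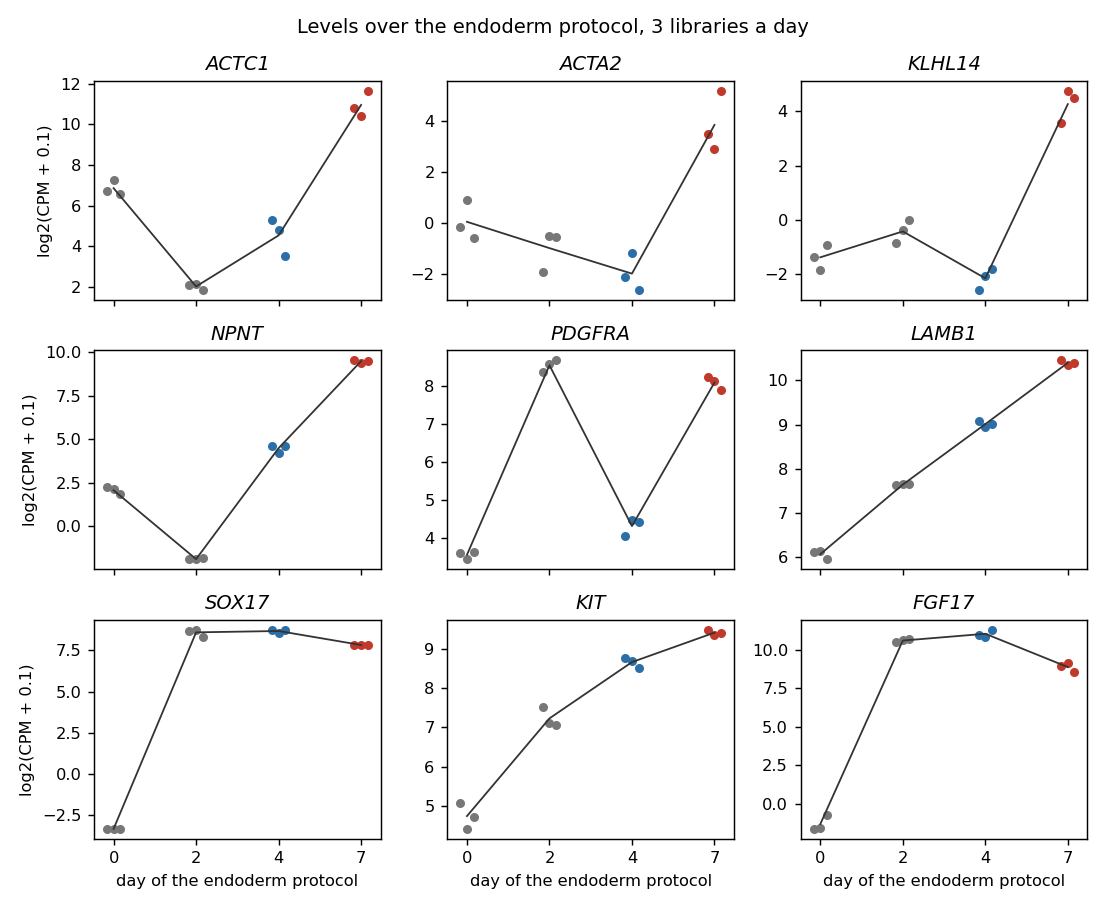
Levels as log2(CPM + 0.1) of 9 genes on days 0, 2, 4 and 7 of the endoderm protocol; points are libraries (blue day 4, red day 7) and the line joins the daily means. ACTA2 and KLHL14 stay low to day 4 and are high at day 7, ACTC1 is lower at days 2 and 4 than at day 0 and highest at day 7, PDGFRA is high at day 2 and at day 7, LAMB1 and KIT climb throughout, and SOX17 and FGF17 are lower at day 7 than at day 4.

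KLHL14 (chr18:32672671-32773062, minus strand) had the largest rise of the 2813 changed genes with a symbol, a mean of at least 8 CPM in the higher group and no overlap between the groups. It stood at 11.7, 26.9 and 22.5 CPM at day 7, against 0.0643, 0.135 and 0.185 CPM at day 4, where the 3 libraries held 6 counts in all. The log2 fold change was 7.22 ± 0.45 (adjusted p = 2.08e-07). Day 2 and day 0 averaged 0.661 and 0.294 CPM. Over the 19 groups of the series its mean was highest in day 7 endoderm, at 21.1 CPM, followed by 17.6 CPM in SOX17-positive CD43-negative WT cells of day 12 of the mesoderm protocol. Of the thyroid and lung progenitor genes, NKX2-1, the factor shared by both lineages, was the other one that rose, with 4.29, 3.65 and 3.02 CPM at day 7 against 0.129, 1.28 and 0.308 CPM at day 4. Its log2 fold change of 2.69 ± 0.53 became 4.01 without the second day 4 library. The thyroid genes PAX8, FOXE1 and TG and the surfactant genes SFTPB and SFTPC were at or under 0.116 CPM in every library.

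By the correlation of log2 CPM over the 12 endoderm libraries, among 13644 genes, the profile most like that of ACTC1 was GOLGA4 (r = 0.986), followed by C3orf52, WDR1, CDH6 and FBXO25. ACTA2 was most like ACTA2-AS1 (r = 0.982), then TINAGL1, SERPINH1, FAM107B and PHF19, and KLHL14 most like EGFR (r = 0.964), then SASH1, GNL1, PTPRA and GRB2. The 12 libraries share 4 days, so these values describe the course over days more than the spread within a day.

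Outside the gene lists, SLITRK6 had the largest rise by the rule for named genes. SLITRK6, a synaptic adhesion protein, measured 37.3, 34.2 and 50.8 CPM at day 7 against 0.643, 0.406 and 0.740 CPM at day 4, a log2 fold change of 6.07 ± 0.30 (adjusted p = 4.31e-08). NPNT, nephronectin, a basement membrane ligand of integrin alpha 8, was the gene with the smallest p of the comparison. It had 734, 671 and 729 CPM at day 7, against 24.5, 18.5 and 24.04 CPM at day 4, which is 31.8-fold (log2 fold change 4.99 ± 0.13, adjusted p = 2.2e-11). TINAGL1, a secreted matrix protein, rose by 5.33 ± 0.29 to 110, 76.4 and 108 CPM at day 7, against 2.64, 2.16 and 2.46 CPM at day 4. IHH, the hedgehog ligand of gut endoderm and cartilage, had 18.9, 25.1 and 23.7 CPM at day 7, against 0.578, 0.947 and 0.925 CPM at day 4 (4.78 ± 0.27). The related ligand SHH measured 36.3, 32.2 and 47.3 CPM at day 7, against 34.5, 36.4 and 25.0 CPM at day 4 and was not called (0.27 ± 0.22). NR2F2, the nuclear receptor COUP-TFII, rose by 4.48 ± 0.28, with 11.7, 13.9 and 13.6 CPM at day 7 against 0.514, 0.406 and 0.801 CPM at day 4. TINAGL1 shares 6822 bases with LINC01226 on the same strand. NPNT, KLHL14, ACTC1, LRTM1, NR2F2, PRTG, PAX6, VTN, CDH1, BMP7 and FGF10 each overlap a gene on the opposite strand, so part of their counts may belong to that gene.

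The other genes among the 15 highest outside the lists were LRTM1 (5.74 ± 0.57), PID1 (4.98 ± 0.19), NTRK2, the receptor of brain-derived neurotrophic factor (4.51 ± 0.43), KCTD16 (4.40 ± 0.46) and the transporter SLC16A12 (4.39 ± 0.34). Lipoprotein lipase LPL, the matrix protein EFEMP1, the muscle protein KLHL41 and the cadherin CDH6 also belonged to them, with 5.01 ± 0.52, 4.81 ± 0.43, 4.61 ± 0.44 and 4.59 ± 0.49. Without the first day 4 library LPL measured 5.78, EFEMP1 5.46 and KLHL41 5.67, and without the second day 4 library CDH6 measured 5.49.

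The 15 largest falls outside the lists included TMEM132B, a membrane protein, with 63.8, 82.3 and 86.5 CPM at day 7 against 661, 728 and 602 CPM at day 4 (log2 fold change -3.10 ± 0.24, adjusted p = 1.14e-06). PRTG, protogenin, a membrane protein of the immunoglobulin superfamily, fell by 3.79 ± 0.39 on the log2 scale. The collagens COL11A1 and COL13A1 fell by 3.71 ± 0.33 and 3.29 ± 0.22. RNF165, RIMS1, CHRNB4 and SEMA6B fell by 3.72 ± 0.24, 3.64 ± 0.24, 3.59 ± 0.26 and 3.28 ± 0.24. NPR1, the receptor of atrial natriuretic peptide, measured 4.35, 5.86 and 3.70 CPM at day 7, against 43.1, 23.3 and 45.2 CPM at day 4. CD300E fell by 3.92 ± 0.39, and measured -4.71 without the third day 7 library. The rest of the 15 were PPIAP46, a processed pseudogene of PPIA whose reads may come from its parent gene, GDNF-AS1, PCYT1B, IGFBPL1 and PDZD4, with falls between 2.81 and 4.12 on the log2 scale.

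Among endoderm marker genes, several nuclear factors fell and several surface or secreted products rose. Of 18 endoderm transcription factors 8 fell and 2 rose (median log2 fold change -0.33), with 4 rising when the third day 7 library was left out. The shares over all genes tested were 10.1 % lower and 11.2 % higher. SOX17 had 227, 231 and 225 CPM at day 7, against 419, 380 and 433 CPM at day 4, a log2 fold change of -0.85 ± 0.11 (adjusted p = 0.00021). One SOX17 allele of this line carries mCherry, and how the transcripts of that allele were counted was not tested. GATA6 fell by 0.48 ± 0.11, EOMES by 0.61 ± 0.11, MIXL1 by 0.86 ± 0.12 and LHX1 by 1.03 ± 0.15. GATA3 rose by 2.02 ± 0.23, with 36.6, 28.8 and 39.9 CPM at day 7 against 10.7, 7.44 and 7.70 CPM at day 4. FOXA2, GATA4, HNF4A, OTX2 and HHEX were not called, with log2 fold changes between -0.25 and 0.51. FOXA2 was called higher without the third day 4 library (0.74, adjusted p = 0.0162) and GATA4 without the third day 7 library (0.50, adjusted p = 0.0444).

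Of 15 surface and secreted endoderm markers tested, 7 rose and 2 fell, with a median of 0.17, beside 11.2 % and 10.1 % of all genes. EPCAM, the epithelial adhesion molecule, had 528, 472 and 459 CPM at day 7, against 230, 262 and 355 CPM at day 4 (log2 fold change 0.79 ± 0.15, adjusted p = 0.00171). KIT, the receptor of stem cell factor, had 714, 647 and 673 CPM at day 7, against 434, 415 and 365 CPM at day 4 (0.75 ± 0.15, adjusted p = 0.00226). CXCR4, the chemokine receptor, had 1295, 1385 and 1187 CPM at day 7, against 1209, 1008 and 1215 CPM at day 4; the groups overlapped and the gene was not called (0.17 ± 0.16, adjusted p = 0.496). CER1, the secreted antagonist of Nodal, BMP and Wnt made by anterior endoderm, rose by 0.58 ± 0.12 to 13660, 16430 and 13730 CPM at day 7, against 9576, 9553 and 10130 CPM at day 4. CDH1, E-cadherin, had 130, 185 and 138 CPM at day 7, against 14.5, 22.7 and 68.5 CPM at day 4; its log2 fold change of 2.10 ± 0.44 became 3.03 without the third day 4 library. CYP26A1, which degrades retinoic acid, fell by 1.23 ± 0.14 to 794, 780 and 607 CPM at day 7, against 1638, 1732 and 1740 CPM at day 4. Of the 4 proteins by which the submitters describe the culture, the transcripts of 2 were thus higher at day 7, that of 1 was lower and that of 1 was not called.

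Some genes of earlier stages fell, beside 10.1 % lower and 11.2 % higher over all genes tested. Of 12 primitive streak genes tested 5 fell (median -0.61), and 0 rose, though 1 rose when the third day 7 library was left out. FGF17, a ligand of the streak and early endoderm, had 501, 558 and 379 CPM at day 7, against 2014, 1856 and 2546 CPM at day 4 (log2 fold change -2.16 ± 0.15, adjusted p = 5.06e-07). TBXT, which defines the streak, stood at 0.290, 0.058 and 0.206 CPM at day 7 and was already scarce at day 4, with 2.25, 4.06 and 1.42 CPM (-3.75 ± 0.53). Of 16 pluripotency genes 6 fell and 2 rose, with a median of -0.64. LIN28A, an RNA-binding protein that blocks let-7, fell by 0.60 ± 0.08, LIN28B by 0.68 ± 0.15 and SALL4 by 0.46 ± 0.09. KLF4 and ZFP42, which are also expressed in pluripotent cells, rose by 1.87 ± 0.33 and 0.59 ± 0.09. The core factors POU5F1, SOX2 and NANOG were at or under 4.39, 1.85 and 0.206 CPM at day 7, with 12.0, 4.01 and 0.863 CPM as their highest values at day 4, and none of the 3 was called. Without the second day 4 library POU5F1 (-1.94, adjusted p = 0.00514) and NANOG (-2.36, adjusted p = 0.0356) were called lower, and POU5F1 also without the third day 7 library (-2.23, adjusted p = 0.0175). Without the third day 4 library they measured -0.80 and -1.22.

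Genes of the 4 signalling pathways changed in both directions, beside 11.2 % higher and 10.1 % lower over all genes tested. Of 17 Nodal and Activin genes 3 rose and 3 fell (median -0.36); the count that fell was 7 without the filter on low counts, 5 with the replicate block and 1 with limma. The type I Activin receptor ACVR1B rose by 1.07 ± 0.09, with 217, 235 and 229 CPM at day 7 against 108, 118 and 97.1 CPM at day 4. FST, follistatin, the Activin-binding inhibitor, rose by 0.98 ± 0.19 to 572, 427 and 627 CPM at day 7, against 272, 345 and 210 CPM at day 4. LEFTY2, a Nodal antagonist and target, stood at 6952, 8634 and 6527 CPM at day 7, against 6712, 5012 and 9737 CPM at day 4, and was not called (0.04 ± 0.19).

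Of 18 BMP pathway genes 5 rose and 6 fell (median -0.58). The extracellular antagonist NOG rose by 3.19 ± 0.35, with 74.3, 43.5 and 82.9 CPM at day 7 against 6.36, 12.0 and 3.70 CPM at day 4 (adjusted p = 2.09e-05). The ligands BMP7 and BMP4 fell by 2.42 ± 0.14 and 1.41 ± 0.27; BMP7 had 8.40, 9.63 and 8.09 CPM at day 7, against 40.3, 51.9 and 47.9 CPM at day 4. ID1 and ID3, inhibitors of differentiation that respond to BMP, fell by 1.66 ± 0.38 and 1.58 ± 0.36, and ID1 measured -2.48 without the third day 7 library. MSX2 and ID4, also known as BMP-responsive, rose by 2.37 ± 0.47 and 1.56 ± 0.33. The receptor inhibitor DMH-1 was in the medium of both groups.

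Of 18 Wnt targets and inhibitors 6 fell and 3 rose (median -0.36). LGR5, the R-spondin receptor, rose by 1.27 ± 0.18 to 246, 274 and 266 CPM at day 7, against 91.1, 108 and 126 CPM at day 4, after means of 1.00 CPM at day 2 and 0.699 CPM at day 0. The targets NKD1 and SP5 fell by 1.54 ± 0.29 and 1.57 ± 0.31. The antagonist DKK4 had 0.232, 0.116 and 0.274 CPM at day 7, against 4.11, 4.26 and 3.21 CPM at day 4, after a mean of 668 CPM at day 2. AXIN2, the general Wnt target, was not called (-0.27 ± 0.15).

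Of 17 FGF pathway genes 5 rose and 6 fell (median -0.42). The receptors FGFR2 and FGFR3 rose by 1.17 ± 0.21 and 1.05 ± 0.19, whereas FGFR1 fell by 0.77 ± 0.11. FGFR3 had 108, 128 and 115 CPM at day 7, against 36.4, 63.8 and 70.0 CPM at day 4, and FGFR1 had 73.3, 71.2 and 79.5 CPM at day 7, against 122, 115 and 146 CPM at day 4. FGF10, a ligand of mesenchyme and foregut, rose by 3.52 ± 0.35 to 8.93, 15.5 and 8.23 CPM at day 7, against 1.22, 0.609 and 0.986 CPM at day 4. The transcriptional effectors ETV4 and ETV5 fell by 1.28 ± 0.18 and 1.47 ± 0.24. DUSP6, another FGF-responsive gene, was not called (-0.42 ± 0.48).

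**Figure D4:**
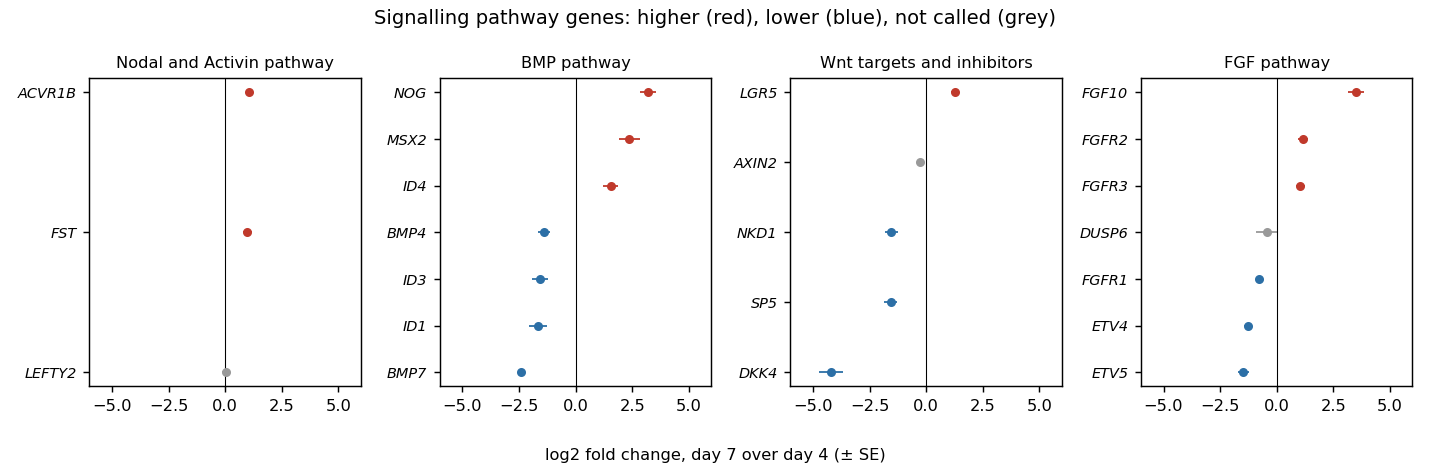
Log2 fold change of day 7 over day 4 with its standard error for the genes named above from the Nodal and Activin, BMP, Wnt and FGF pathways; red genes were called higher at day 7, blue genes lower, and grey genes were not called. The BMP, Wnt and FGF genes drawn lie on both sides of 0, from FGF10 at 3.52 and NOG at 3.19 to DKK4 at -4.19.

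Matrix genes changed in both directions, with 7 of 27 genes higher and 7 lower (median -0.10), beside 11.2 % and 10.1 % of all genes tested. The count of those higher was 11 when the third day 4 library was left out. Some basement membrane and interstitial adhesion genes were among those higher, while 13 of the 27 matrix genes were not called. The laminin chain LAMA5, for example, was not called (-0.11, adjusted p = 0.446). FN1, fibronectin, rose by 1.55 ± 0.18 to 9342, 13570 and 11780 CPM at day 7, against 3330, 3335 and 5224 CPM at day 4 (adjusted p = 2.84e-05). LAMB1, a laminin chain, had 1401, 1309 and 1335 CPM at day 7, against 540, 496 and 513 CPM at day 4, a log2 fold change of 1.39 ± 0.08 (adjusted p = 1.11e-07). The type IV collagen chains COL4A1 and COL4A2, which are transcribed from a shared promoter, rose by 1.00 ± 0.10 and 0.91 ± 0.08, and SPARC, which binds collagen IV, rose by 0.75 ± 0.11. Of the genes that fell, FBN2, the fibrillin of embryonic microfibrils, had 4.52, 4.18 and 4.66 CPM at day 7, against 62.7, 69.8 and 74.3 CPM at day 4 (-3.95 ± 0.20, adjusted p = 4.31e-08). COL5A1 fell by 1.182 ± 0.13 and COL6A1 by 0.64 ± 0.09. VCAN, versican, fell by 1.99 ± 0.36, and measured -2.89 without the third day 7 library. FBN2 also overlaps SLC27A6 on the opposite strand.

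Epithelial genes changed in both directions, beside 11.2 % higher and 10.1 % lower over all genes tested. The epithelial keratin KRT8 fell by 0.42 on the log2 scale (adjusted p = 0.0436), a call that was lost in 8 of 12 alternatives. Of 19 genes of the epithelial and mesenchymal switch 4 rose, namely CDH1, EPCAM, the splicing regulator ESRP1 (0.85 ± 0.14) and the tight junction protein OCLN (0.80 ± 0.13), and 3 fell. The count of those that fell was 1 when the first day 7, the second day 7 or the second day 4 library was left out. ZEB2, a repressor of E-cadherin, fell by 2.96 ± 0.54, with 0.696, 0.290 and 0.686 CPM at day 7 against 6.30, 5.07 and 1.73 CPM at day 4. CDH2, N-cadherin, lay between 831 and 1009 CPM at day 7 and between 842 and 1041 CPM at day 4 and was not called. VIM, vimentin, had 474, 178 and 629 CPM at day 7, against 1097, 1074 and 453 CPM at day 4, with overlapping groups (-1.03 ± 0.38, adjusted p = 0.0667). VIM was called lower without the third day 4 library (-1.34, adjusted p = 0.0136) and without the third day 7 library (-1.43, adjusted p = 0.0226).

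Several genes of mitosis rose, beside 11.2 % higher and 10.1 % lower over all genes tested. Of 22 genes of replication and mitosis 11 rose and 2 fell (median 0.40), and the count of rises lay between 11 and 14 with any 1 library left out, while the falls became 1 without the first day 4 library. PLK1, a mitotic kinase, had 125, 145 and 119 CPM at day 7, against 55.9, 63.96 and 69.5 CPM at day 4 (log2 fold change 1.04 ± 0.11, adjusted p = 1.29e-05). TYMS, the thymidylate synthase, rose by 0.99 ± 0.10, TOP2A, a topoisomerase of dividing cells, by 0.82 ± 0.09 and the proliferation antigen MKI67 by 0.76 ± 0.09. TOP2A and MKI67 had been higher still at day 2, with means of 638 and 598 CPM. The replication licensing genes MCM2, MCM3 and MCM5 were not called (0.12 ± 0.12, 0.23 ± 0.10 and 0.33 ± 0.12), though MCM5 was called higher in 5 of 12 alternatives, such as DESeq2 (adjusted p = 0.027). CCND1, cyclin D1, fell by 1.13 ± 0.14 to 18.6, 27.8 and 22.5 CPM at day 7, against 46.01, 46.9 and 58.4 CPM at day 4.

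**Figure D5:**
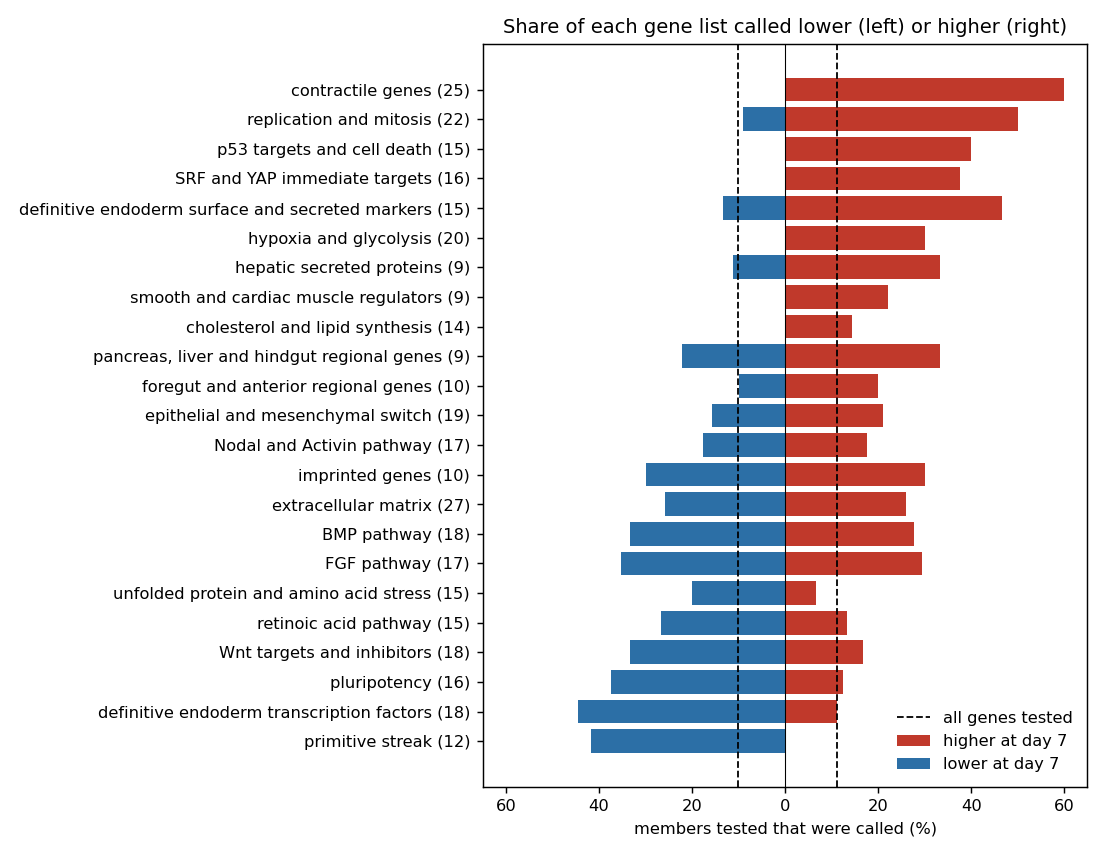
For each gene list with at least 9 members tested (number in brackets), the bar to the right is the percent of members called higher at day 7 and the bar to the left the percent called lower; dashed lines mark 11.2 % and 10.1 %, the shares over all genes tested. The contractile list lies farthest to the right and the primitive streak list has no bar on the right.

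Markers of other cell types were measured beside these results. Of the mesoderm and mesenchyme markers, PDGFRA, the receptor of platelet-derived growth factor A, rose by 3.79 ± 0.14, with 304, 285 and 239 CPM at day 7 against 16.3, 22.1 and 21.2 CPM at day 4, and it had averaged 379 CPM at day 2. LUM, the proteoglycan lumican, had 39.2, 11.4 and 48.6 CPM at day 7, against 7.46, 3.58 and 0.801 CPM at day 4 (3.07 ± 0.60, or 3.94 without the first day 4 library). PDGFRB fell by 1.175 ± 0.19, and COL3A1, DCN, TWIST1, PRRX1 and FOXF1 were at or under 1.99 CPM in every library. Of 8 genes of that list tested 2 rose and 1 fell, beside 11.2 % higher and 10.1 % lower over all genes tested. The summed level of its 15 genes was 304 to 358 CPM at day 7, against 45.8 to 47.7 CPM at day 4, most of the difference being PDGFRA. The part of mesenchymal cells in the contractile result was not tested.

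Of 8 endothelial genes tested 6 fell and 2 rose (median -1.29), beside 10.1 % lower and 11.2 % higher over all genes tested. The defining genes CDH5, PECAM1, EMCN and ERG were at or under 0.308 CPM in every library. The summed level of the 14 endothelial genes was 116 to 163 CPM at day 7, against 284 to 390 CPM at day 4, most of it VWF, which fell by 1.33 ± 0.15. KDR and TEK fell by 1.71 ± 0.21 and 1.52 ± 0.20, while CD34 rose by 3.49 ± 0.36 to 11.2, 13.1 and 9.67 CPM at day 7, against 1.09, 0.338 and 1.54 CPM at day 4. The blood gene PTPRC had no count in the 6 libraries, and the 12 blood genes summed to 8.85 to 12.5 CPM at day 7, against 12.2 to 14.5 CPM at day 4.

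Of 8 neural genes tested 1 rose and 3 fell, and of 5 trophoblast genes 2 rose and 1 fell. Over all genes tested 11.2 % were higher and 10.1 % lower, and with so few members these counts are descriptions only. PAX6, a factor of eye, brain and pancreatic islets, had 23.1, 13.1 and 25.2 CPM at day 7, against 3.21, 3.58 and 2.34 CPM at day 4 (log2 fold change 2.75 ± 0.27, adjusted p = 8.13e-06), whereas SOX1 had no count and NES fell by 1.37 ± 0.22. Of the trophoblast list GATA3, described above, rose, and IGFBP3, a binding protein of insulin-like growth factors, rose by 4.26 ± 0.37, while the trophoblast genes CGA and ELF5 had no count and TFAP2C fell by 2.60 ± 0.20. Of 9 liver genes tested 3 rose and 1 fell, and the list summed to 1154 to 1505 CPM at day 7, against 1085 to 1588 CPM at day 4. TTR, SERPINA1, FGB and APOC3 had no count and ALB and AFP at most 0.0676 CPM. VTN, vitronectin, rose by 3.66 ± 0.31 to 29.5, 25.2 and 53.02 CPM at day 7, against 1.67, 3.38 and 3.45 CPM at day 4. The apolipoprotein gene APOA1 rose by 1.37 on the log2 scale, while APOC1 had a log2 fold change of -0.775. Of the 9 tested regional genes of pancreas, liver and hindgut 3 rose and 2 fell, and those that fell were at or under 3.94 CPM in every library. ONECUT2 and PROX1, factors of liver and pancreas buds, rose by 1.16 ± 0.17 and 1.12 ± 0.23, and PDX1 and CDX2 had no count.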

How the data were processed

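Total RNA of the unsorted cells was sequenced from TruSeq libraries, per the labels. The deposited table holds raw fragment counts per gene, not normalized by the authors. A second deposited table holds log2 values, log2 of TMM-scaled RPKM plus 1 as the file names its unit, and served as an alternative. The submitters' processing notes name cutadapt 1.18, featureCounts, R 3.2.2 and the build GRCh38; for the aligner, the annotation release and the use of strand nothing is given in the sources used here. Of 58302 gene identifiers, 58039 were found in GENCODE 29, which gave coordinates, and 57532 have a current symbol.

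The test was edgeR 4.0.16 in R 4.3.3: TMM factors, filterByExpr (minimum count 10, minimum total 15), 1 mean per day over the 12 endoderm libraries, glmQLFit and glmQLFTest for day 7 minus day 4, Benjamini-Hochberg adjustment, threshold 0.05. Standard errors were derived from the log2 fold change and its F statistic. CPM were computed with the TMM factors; RPKM printed are means computed from the deposited log2 values. Replicates differed by a chi-square per gene between 9.69 and 29.3, so no library was a repeat of another. The scripts were tested on simulated counts. Promoters come from RefSeq.

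The genes and the 29 gene lists were chosen with earlier results of these data known, so lists are described by counts and medians only. Outside the lists, the 15 highest and the 15 lowest called genes with a mean of at least 8 CPM and no overlap are named, and for 3 genes the 5 of most similar profile. From each list, members of large change whose call held under the alternatives were named, together with members that were not called. KRT8 is named although its call did not hold. Alternatives were other size factors, no filter, DESeq2 1.42.0, limma 3.58.1 on the deposited log2 values, day 7 and day 4 alone, the replicate number as a block, and each library left out. Some genes of the lists are counted but not reported by name here.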

Additional observations from a re-analysis of the deposited data

How the results depend on the processing

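The number of genes called was 4593 with median-of-ratios size factors, 5507 without the filter on low counts, 4856 with DESeq2, 4331 with limma on the deposited log2 values, 3203 with day 7 and day 4 fitted alone, and between 3435 and 4512 with 1 library left out, against 4579 as reported. Genes lower at day 7 numbered 1396 when the 2 days were fitted alone, against 2166 as reported, and that fit rests on fewer libraries. Apart from KRT8, no gene named as changed lost its call or changed sign under any of these alternatives. For list members this was fixed by the naming, since members whose call held were chosen. Other called list members lost their call in up to 8 of 12 alternatives. Of the genes called as reported, 69 % were also called with the 2 days fitted alone, and 72.2 to 82.3 % with 1 library left out. Of the genes named as not called, CDH2, DUSP6, EGR1, LEFTY2, OTX2, SRF, THBS1 and TTN changed sign in at least 1 alternative without being called there with that sign. Without the filter on low counts DUSP6, FOXA2, GATA4, MCM5, MYOCD, NANOG, POU5F1, SOX2, TPM1 and VIM were called, the members that fell numbered 10 for pluripotency and 6 for the epithelial and mesenchymal switch, and those that rose 5 for endoderm transcription factors and 5 for imprinted genes. With limma HHEX was called (-0.25, adjusted p = 0.0378), 3 BMP genes rose, and 4 matrix genes fell. NANOG was also called by DESeq2 (adjusted p = 0.0312) and GATA4 with the replicate block (adjusted p = 0.0491). With the replicate number as a block (the pairing of same-numbered libraries) 4656 genes were called, and 4315 of them are among those reported; same-numbered libraries correlated by 0.18, -0.326 and -0.379 in their deviations, so the numbers do not pair the libraries. Calls of genes under 1 CPM at day 7 or at day 4, such as ACTA2, ACTG2, KLHL14, TBXT, DKK4 and MEF2C, rest on few counts on that side. ACTA2 had 8 counts in all over the day 4 libraries, so the size of its change is loosely set.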

Other observations

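Several metabolic and stress genes also changed, beside 11.2 % higher and 10.1 % lower over all genes tested. ABCA1, the cholesterol exporter, had 347, 287 and 345 CPM at day 7, against 46.01, 60.9 and 27.1 CPM at day 4, a log2 fold change of 2.87 ± 0.23 (edgeR, adjusted p = 1.38e-06). The lipid synthesis genes SQLE and FASN were not called (-0.15 ± 0.12 and -0.15 ± 0.08). PHGDH and PSAT1, enzymes of serine synthesis, fell by 0.94 ± 0.21 and 1.38 ± 0.26. Of 15 targets of p53 and cell death genes 6 rose and 0 fell, with a median of 0.54. Among them CDKN1A, the cell cycle inhibitor p21, had 12.9, 13.1 and 10.98 CPM at day 7, against 3.34, 2.50 and 1.23 CPM at day 4, GDF15 rose by 3.03 ± 0.38 and BAX by 0.51 ± 0.11. Of 20 hypoxia and glycolysis genes 6 rose, such as ADM, adrenomedullin (2.42 ± 0.35), PFKP (0.90 ± 0.16) and LDHA (0.63 ± 0.13), and 0 fell, though 1 fell without the second day 4 library.

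Imprinted genes were split. DLK1, a Notch-like membrane protein, had 63.2, 162 and 62.1 CPM at day 7, against 15.7, 14.9 and 34.7 CPM at day 4 (log2 fold change 2.13 ± 0.36, or 1.52 without the second day 7 library), and PLAGL1 rose by 1.53 ± 0.23. PEG10, a retrotransposon-derived gene, had 34.3, 35.4 and 37.6 CPM at day 7, against 130, 131 and 97.0 CPM at day 4 (-1.74 ± 0.12), IGF2 fell by 1.80 ± 0.25 and NNAT by 0.93 ± 0.13. H19 and PEG3 had no count in any of the 6 libraries. In the retinoic acid list the binding protein CRABP2 rose by 1.35 ± 0.29 while CRABP1 fell by 3.31 ± 0.54, and measured -2.66 without the third day 4 library.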
